A study of Mus musculus with 8 samples.

Results

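The vasoactive peptide genes Edn1, Adm and Nts were followed together with genes that convert or bind their products. The 10 genes were Edn1, Ece1, Ednra, Ednrb, Adm, Calcrl, Ramp1, Ramp2, Ramp3 and Nts, out of 55367 gene rows in the count table. They were chosen by symbol. Edn1, Adm and Nts were picked for their measured changes in these same libraries, so their values are given as a description and carry no test. The other 7 genes were chosen as their partners, and tests are given for those of the 7 with enough counts. Their choice too was made with earlier results of these data known. With tumor-conditioned medium Edn1 was at 6.61-fold and Adm at 8.92-fold of the level with control conditioned medium, while Nts was 5.01-fold lower. Of the partner genes, Ednra, Calcrl and Ramp2 fell in that comparison and Ece1 did not pass the test.

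Endothelin-1, adrenomedullin and neurotensin are short secreted peptides that are cut from longer precursors. Endothelin-1, the product of Edn1, is released by the converting enzyme Ece1 and acts through the G protein-coupled receptors Ednra and Ednrb, and is best known as a constrictor of vessels. Adrenomedullin, the product of Adm, dilates vessels and acts on lymphatic and blood endothelium through Calcrl, a receptor that needs a Ramp protein at the cell surface. Calcrl with Ramp2 or Ramp3 binds adrenomedullin, and Calcrl with Ramp1 binds CGRP. Neurotensin, the product of Nts, is made in gut and brain and acts through Ntsr1, Ntsr2 and the sorting receptor Sort1. Edn1 and Adm are widely transcribed in cells under hypoxia or growth factor signals.

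All libraries came from a cultured line of fibroblastic reticular cells (FRC), the stromal cells that build the scaffold of the lymph node. Per the study's methods the line was derived from lymph nodes of p53ER/ER mice on the C57BL/6 background, so every group carried that allele. The 4 groups of 2 libraries each differed in the medium. The vehicle group received medium with water and the LA group medium with 15 mM lactic acid, the acid dissolved in water. The TCM group received medium conditioned by B16.F10 melanoma cells, and the CCM group received control conditioned medium, which the methods describe as conditioned by FRC. TCM against CCM compared the effect of medium conditioned by tumor cells with that of medium conditioned by FRC. LA against vehicle asked what lactic acid alone does. The study gives the same exposure time for all groups of this experiment. The cells are 1 line in culture, without endothelium, nerves or flow. The study calls the libraries of a group biological replicates, without saying how they were kept apart, and the tests measure the spread between these libraries.

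The 8 libraries held between 8232889 and 14107964 counts, and 12137 genes had at least 10 counts in at least 3 libraries and were tested. Levels are given as CPM, a gene's counts relative to the library total, which was first scaled by TMM factors of 0.938 to 1.04. A count of 0 allowed a level of up to 3 counts, between 0.211 and 0.354 CPM depending on the library, counting error only. Of 11 FRC markers 8 passed the count minimum, and their summed level was 13442 to 18056 CPM. Most of that sum was the collagen gene Col1a1. The FRC chemokine genes Ccl21a and Ccl19 had 0 and at most 1 count per library, and Thy1 had at most 16. Of 6 leukocyte markers 5 were at 0 in every library, Ptprc among them. The 6 melanoma markers summed to 0.955 to 1.89 CPM, with Tyrp1 at 6 and 3 counts in the TCM libraries and 0 in the others.

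The stretches just before the start sites of the peptide genes are shown because these 3 genes were picked for their changes, and the letters let a reader see what lies there. They were taken from RefSeq on GRCm38.p6, in the direction of transcription, and hold no base that RefSeq or GENCODE places inside the gene. Capitals mark matches to the motifs listed after them. The Edn1 stretch is chr13:42301226-42301475 on the plus strand, the Adm stretch chr7:110627407-110627656 on the plus strand and the Nts stretch chr10:102490487-102490668 on the minus strand. The Nts stretch was shortened to 182 bases and ends at the GENCODE start, which lies further upstream than the RefSeq start.
Edn1: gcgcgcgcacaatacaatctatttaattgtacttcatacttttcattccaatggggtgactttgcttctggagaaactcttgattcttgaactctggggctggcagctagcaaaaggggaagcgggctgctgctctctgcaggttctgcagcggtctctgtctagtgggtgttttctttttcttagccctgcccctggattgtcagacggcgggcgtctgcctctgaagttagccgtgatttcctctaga
Adm: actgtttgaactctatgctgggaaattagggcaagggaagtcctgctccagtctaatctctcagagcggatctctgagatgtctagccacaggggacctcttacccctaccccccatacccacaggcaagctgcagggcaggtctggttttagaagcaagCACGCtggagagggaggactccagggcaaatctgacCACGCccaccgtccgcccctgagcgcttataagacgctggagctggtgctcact
Nts: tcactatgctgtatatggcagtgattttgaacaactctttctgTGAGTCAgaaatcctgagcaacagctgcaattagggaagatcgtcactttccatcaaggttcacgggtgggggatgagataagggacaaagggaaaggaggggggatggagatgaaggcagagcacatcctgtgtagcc

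The motifs were searched on both strands in RefSeq windows that reach from 250 bases before to 50 after each start. They were the hypoxia response cores ACGTG and GCGTG, the AP-1 motif TGANTCA, the cyclic AMP response motif TGACGTCA and the TATA box TATAAA. The 2 matches in the Adm stretch were GCGTG on the strand opposite to the gene, with their first bases at -90 and -54 from the RefSeq start. The match in the Nts stretch was TGANTCA at -207, also counted from the RefSeq start, which lies beyond the end of the printed stretch. Edn1 had ACGTG on the opposite strand at 22 bases into the transcribed side, which is not printed. These motifs are common: GCGTG was in 32.4% of all 32817 windows, ACGTG in 19.6%, TATAAA in 13.6%, TGANTCA in 7.81% and TGACGTCA in 1.79%. Among the partner genes GCGTG was found in windows of Ece1, Ednrb, Calcrl and Ramp3, ACGTG in a window of Ece1, and no motif in the windows of Ednra or Ramp1. Ramp2 is named only, with no window searched. A match is a description of letters and was not linked to binding.

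Edn1 lies at chr13:42301476-42307990 on the plus strand (GRCm38). It was at 12.05 and 6.84 CPM in the vehicle libraries, 6.74 and 6.68 in CCM, 16.8 and 10.004 in LA, and 42.3 and 46.5 in TCM. Both TCM libraries were above every other library, and the LA and vehicle libraries overlapped. The fitted log2 fold change was 2.72 (SE 0.256) for TCM against CCM and 0.48 (SE 0.273) for LA against vehicle. In rising order of mean level the groups were CCM (6.71 ± 0.0393 CPM, SD, n = 2), vehicle (9.44 ± 3.69), LA (13.4 ± 4.79) and TCM (44.4 ± 2.995). The vehicle mean was within its SD of the CCM mean and the vehicle and LA libraries overlapped, while both LA libraries were above both CCM libraries. The LA difference from vehicle depended on single libraries, at 0.93 without the first vehicle, 0.11 without the second vehicle, 0.10 without the first LA and 0.85 without the second LA library. Each LA library was above the vehicle library of the same replicate number, which may not mark pairs. With that number as a block the difference was 0.49 (SE 0.240). The predicted gene Gm47118, antisense to Edn1, had 0 counts in every library.

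Adm, at chr7:110627661-110629820 on the plus strand, had its high values in TCM alone. The vehicle libraries were at 6.69 and 4.99 CPM, CCM at 5.14 and 4.77, LA at 6.14 and 4.65, and TCM at 43.3 and 45.5. The 6 libraries outside TCM shared 1 range and the TCM libraries lay above it. The log2 fold change was 3.16 (SE 0.170) for TCM against CCM and -0.13 (SE 0.209) for LA against vehicle. The means in rising order were 4.96 ± 0.258 CPM in CCM, 5.40 ± 1.06 in LA, 5.84 ± 1.21 in vehicle and 44.4 ± 1.55 in TCM (SD, n = 2), and the first 3 did not differ beyond their spread. The sign of the LA difference turned when 1 library was left out, to 0.080 without the first vehicle library and 0.086 without the second LA library. Each LA library was below the vehicle library of the same replicate number. With that number as a block the difference was -0.13 (SE 0.208). The antisense gene Gm28863 had at most 4 counts. Whether counting used strand is not given in the sources used here.

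Nts, at chr10:102481756-102490486 on the minus strand, moved in opposite directions with the 2 treatments. It was at 21.2 and 25.1 CPM in vehicle, 32.2 and 25.2 in CCM, 46.1 and 52.4 in LA, and 5.58 and 5.89 in TCM. The TCM libraries lay below and the LA libraries above all others. The log2 fold change was -2.32 (SE 0.179) for TCM against CCM and 1.09 (SE 0.143) for LA against vehicle, the latter a 2.13-fold difference. The means in rising order were 5.73 ± 0.218 CPM in TCM, 23.2 ± 2.78 in vehicle, 28.7 ± 4.93 in CCM and 49.2 ± 4.48 in LA (SD, n = 2). The vehicle and CCM libraries did not overlap but nearly met, at 25.1 and 25.2 CPM. Of 4 neuroendocrine markers, which mark cells that often secrete peptides, Chga was at 0 in every library and only Scg2 passed the count minimum. Their summed level was 12.6 to 17.8 CPM in TCM, 30.0 to 31.1 in CCM, 33.8 to 37.9 in vehicle and 42.4 to 48.3 in LA. Most of that sum was Scg2, whose order of groups was that of Nts except for vehicle and CCM. Syp, at 1 to 10 counts, had its highest mean in TCM (0.744 CPM) and its lowest in LA (0.235). The part of these markers in the Nts values was not tested.

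**Figure D1:**
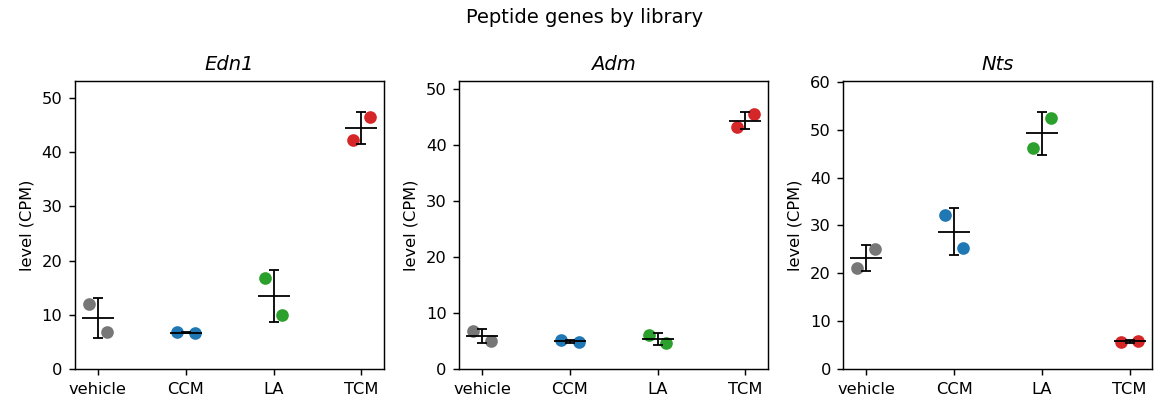
Level in CPM (linear axis from 0) of Edn1, Adm and Nts in each library, by medium; each point is 1 library, the long bar is the mean of 2 and the error bar the SD. Edn1 and Adm were above 42 CPM in both TCM libraries and below 17 in all others, while Nts was below 6 in TCM and above 46 in LA.

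Of the 7 partner genes, 4 passed the count minimum (Ece1, Ednra, Calcrl and Ramp2) and 3 did not (Ednrb, Ramp1 and Ramp3). In TCM against CCM, 3 of the 4 fell and none rose, where a call needed an edgeR adjusted p under 0.05 together with a log2 fold change beyond 0.39. Over all tested genes 19.1% were called in that comparison and 10.2% were called lower. In LA against vehicle 1 of the 4 was called, Ramp2, which rose, against 2.55% of all tested genes called and 1.31% called higher. In CCM against vehicle it was again Ramp2 alone, higher, against 1.30% called and 0.898% called higher. In TCM against LA, Calcrl and Ramp2 fell, against 16.1% called and 7.77% called lower. The comparisons share libraries, so their calls are not separate evidence.

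Ece1 (chr4:137862237-137965229, plus strand), the enzyme that releases endothelin-1, was by far the most counted partner gene. It was at 166 and 204 CPM in vehicle, 163 and 153 in CCM, 190 and 209 in LA, and 172 and 220 in TCM. The TCM libraries were above the CCM libraries, by less than the distance between the TCM libraries. The log2 fold change for TCM against CCM was 0.31 (95% interval 0.01 to 0.60, edgeR adjusted p = 0.130), and for LA against vehicle 0.11 (-0.19 to 0.40, adjusted p = 0.817). Without the first TCM library the TCM difference passed the test at 0.47 (edgeR adjusted p = 0.0113).

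Ednra (chr8:77663031-77724464, minus strand), the endothelin receptor of contractile cells, was near the lower limit of what these libraries can measure. Its counts were 7 and 24 in vehicle, 42 and 32 in CCM, 10 and 37 in LA, and 8 and 4 in TCM. As levels these were 0.781 and 2.22, 3.54 and 3.05, 1.18 and 2.61, and 0.842 and 0.436 CPM. Both CCM libraries were above both TCM libraries, whereas the vehicle and TCM ranges overlapped. Ednra fell by 2.34 on the log2 scale in TCM against CCM (SE 0.542, edgeR adjusted p = 0.0107). The fall missed the threshold without the first CCM library, at -2.23 (edgeR adjusted p = 0.0595). The LA difference was 0.38 (95% interval -0.68 to 1.44, edgeR adjusted p = 0.820), an interval that leaves room for changes in either direction. CCM against vehicle (1.08, edgeR adjusted p = 0.327) and TCM against LA (-1.64, edgeR adjusted p = 0.0801) did not pass. The former was 0.57 without the first vehicle library and 2.06 without the second. The 5 mural cell markers, from cells that carry this receptor, summed to 186 to 247 CPM in TCM and 212 to 251 in CCM, most of it Notch3. Myh11 was at 1.05 and 1.09 CPM in TCM and 1.94 and 2.39 in CCM. Cspg4 was at 5.79 and 8.39 CPM in TCM and 10.5 and 8.88 in CCM. The TCM and CCM ranges of Notch3, Mcam and Rgs5 overlapped. The part of these markers in the Ednra result was not tested. Ednrb, the endothelin receptor of endothelium and neural crest, had 0 counts in every library.

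Calcrl (chr2:84330626-84425411, minus strand), the shared receptor of adrenomedullin and CGRP, fell with TCM. It was at 50.5 and 62.3 CPM in vehicle, 63.6 and 58.9 in CCM, 45.6 and 59.7 in LA, and 15.6 and 18.5 in TCM. The TCM libraries were below all others, which shared 1 range. Calcrl was 3.59-fold lower in TCM than in CCM, a log2 fold change of -1.85 (SE 0.164, edgeR adjusted p = 3.62e-05). It was also lower than in LA, by -1.64 (SE 0.165, edgeR adjusted p = 9.17e-05). The LA difference from vehicle was -0.09 (95% interval -0.42 to 0.23, edgeR adjusted p = 0.863), and CCM differed from vehicle by 0.12 (-0.21 to 0.44, edgeR adjusted p = 0.834).

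Ramp2 (chr11:101246028-101259546, plus strand), which turns Calcrl into an adrenomedullin receptor, differed between media in each comparison. It was at 11.3 and 12.6 CPM in vehicle, 23.0 and 19.3 in CCM, 22.0 and 21.3 in LA, and 9.79 and 7.30 in TCM. CCM and LA overlapped at the high end, vehicle was in between and TCM was lowest, without overlap between vehicle and TCM. Ramp2 fell in TCM against CCM by 1.31 on the log2 scale (SE 0.168, edgeR adjusted p = 0.000310). It fell by 1.34 against LA (SE 0.168, edgeR adjusted p = 0.000366). It rose by 0.86 in LA against vehicle (SE 0.159, edgeR adjusted p = 0.0204) and by 0.83 in CCM against vehicle (SE 0.159, edgeR adjusted p = 0.0371). The last 2 calls were lost when libraries were left out, while the differences stayed of like size. The LA call was lost without either vehicle library or either LA library (edgeR adjusted p between 0.0983 and 0.165), at log2 0.78 to 0.94. The CCM call was lost without any 1 of the vehicle, CCM or LA libraries (edgeR adjusted p between 0.0557 and 0.375), at log2 0.69 to 0.94. Vps25, which overlaps Ramp2 on the same strand, had 1 to 6 counts. How reads in the shared stretch were assigned is not given in the sources used here. The part of Vps25 reads in the Ramp2 counts was not tested.

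The other Ramp genes were not measurable. Ramp1, the partner of Calcrl in the CGRP receptor, had 0 to 2 counts per library and was at 0 in 4 of 8. Ramp3, the other adrenomedullin partner, had 0 to 3 counts and was at 0 in 3 of 8. Endothelium is where Calcrl and Ramp2 are best known, and 1 of 10 endothelial markers, the lymphatic factor Prox1, was at 0 in every library. Pecam1 had 4 to 9 counts, Cdh5 1 to 7 and Kdr 3 to 13. Only Emcn and Tek passed the count minimum. Tek was at 2.45 and 4.43 CPM in vehicle, 3.12 and 2.67 in CCM, 2.01 and 4.58 in LA, and 0.947 and 0.654 in TCM. It was lowest in TCM, as Calcrl and Ramp2 were, but other markers were not. Emcn was lowest in vehicle, at 35.0 and 41.2 CPM, beside 48.9 and 45.9 in TCM. Kdr, with few counts, had its highest mean in TCM, at 1.02 CPM. The list summed to 48.9 to 51.8 CPM in TCM, 63.7 to 64.9 in CCM, 53.5 to 68.5 in LA and 39.9 to 48.7 in vehicle, most of it Emcn. Its part in the Calcrl and Ramp2 results was not tested.

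**Figure D2:**
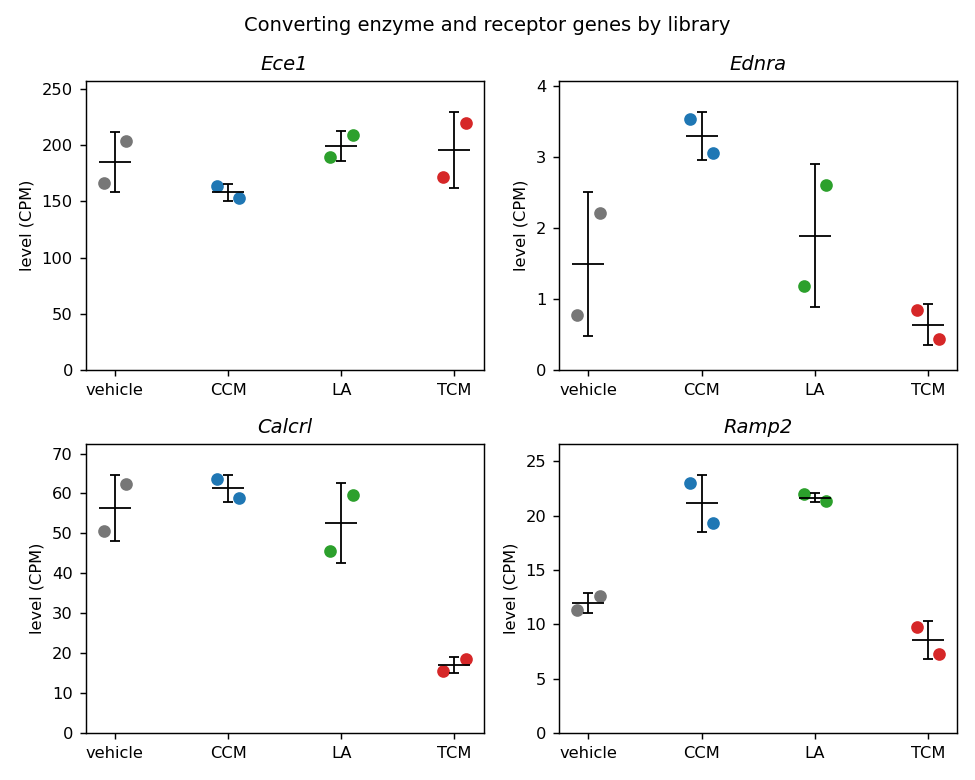
Level in CPM (linear axes from 0, each panel with its own range) of the 4 partner genes that passed the count minimum; each point is 1 library, the long bar is the mean of 2 and the error bar the SD. Calcrl and Ramp2 were lowest in TCM, Ramp2 was alike in CCM and LA, Ednra stayed below 4 CPM, and Ece1 overlapped between vehicle, LA and TCM.

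Per length of the annotated exons, levels can be set roughly between genes. The length joined the exons of all annotated transcripts, used or not, so a gene with unused exons reads too low. For Ramp2, which overlaps Vps25, it was 3301 bases. In CCM, Ece1 was at 29.8 ± 1.40 CPM per kilobase (SD, n = 2), Nts at 23.0 ± 3.95, Calcrl at 12.5 ± 0.679, Ramp2 at 6.40 ± 0.795, Edn1 at 3.14 ± 0.0184, Adm at 3.06 ± 0.159 and Ednra at 0.602 ± 0.0623. In TCM the order was Ece1 at 36.9 ± 6.36, Adm at 27.4 ± 0.960, Edn1 at 20.8 ± 1.40, Nts at 4.59 ± 0.175, Calcrl at 3.49 ± 0.428, Ramp2 at 2.59 ± 0.532 and Ednra at 0.117 ± 0.0524. Nts was thus the peptide gene with the highest level per kilobase in CCM, and Adm in TCM. Edn1 and Adm in CCM did not differ beyond their spread.

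The effect of TCM over CCM was set against the effect of LA over vehicle by an interaction term. Of the 4 partner genes 3 were called, all lower, against 10.4% of all tested genes called and 6.00% called lower. The difference of the 2 effects was -2.16 for Ramp2 on the log2 scale (SE 0.231, edgeR adjusted p = 0.000176), whose effects had opposite signs. For Calcrl it was -1.75 (SE 0.221, edgeR adjusted p = 0.000514). For Ednra it was -2.72 (SE 0.736, edgeR adjusted p = 0.0386), which was lost without the first vehicle, either CCM, the second LA or the second TCM library (edgeR adjusted p between 0.0594 and 0.252), at -1.95 to -2.82. Over all omissions of 1 library it ranged from -3.70, without the second vehicle library, to -1.95, without the second LA library. For Ece1 it was 0.20 (95% interval -0.22 to 0.62, edgeR adjusted p = 0.569). The same difference, as a description, was 2.24 for Edn1 (SE 0.380), 3.29 for Adm (SE 0.274) and -3.41 for Nts (SE 0.230).

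**Figure D3:**
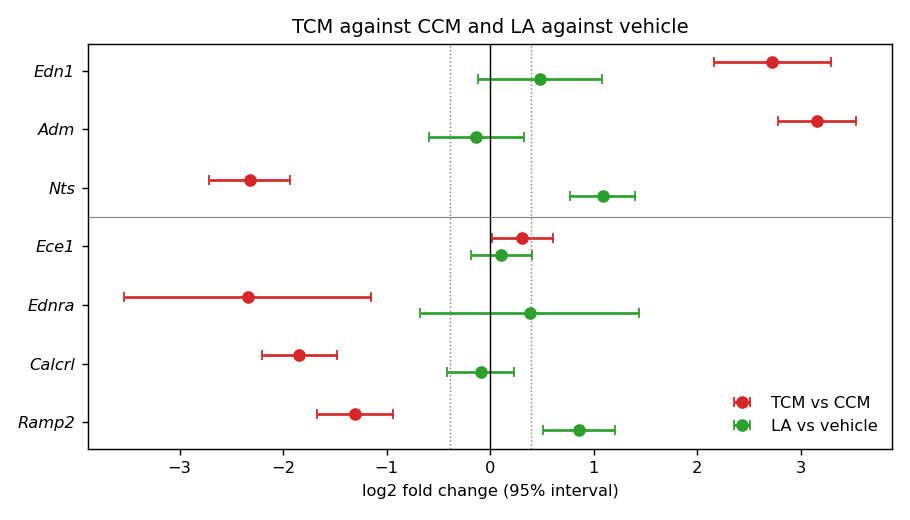
Log2 fold change of TCM against CCM (red) and of LA against vehicle (green) for the 7 genes that passed the count minimum, with 95% intervals from the fit; the grey line sets off the 3 genes picked for their changes, and dotted lines mark 0.39 in either direction. Ramp2 has effects of opposite sign with intervals that leave out 0. Nts also has effects of opposite sign, shown as a description because it was picked for its changes. The signs also differ for Ednra and Adm, whose LA intervals include 0. The Calcrl and Adm effects of LA lie near 0.

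The neurotensin receptors are where Nts could act. Ntsr1 had 0 counts in every library and Ntsr2 at most 2. Sort1, the sorting receptor that also binds neurotensin, was at 11.7 and 15.1 CPM in vehicle, 7.24 and 7.92 in CCM, 10.3 and 10.6 in LA, and 13.9 and 15.7 in TCM. Both CCM libraries were lowest and TCM overlapped vehicle. Sort1 rose by 0.96 on the log2 scale in TCM against CCM (SE 0.171, edgeR adjusted p = 0.00248), and its LA difference was -0.37 (edgeR adjusted p = 0.349). The 2 effects of Sort1 differed by 1.33 (edgeR adjusted p = 0.00458). The control medium differed as well: Sort1 was called lower in CCM against vehicle (-0.83, edgeR adjusted p = 0.0461). TCM against LA did not pass (0.50, edgeR adjusted p = 0.0585).

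Ackr3, a scavenger receptor for chemokines that also takes up adrenomedullin, fell with both treatments. It was at 29.9 and 31.7 CPM in vehicle, 21.9 and 19.0 in CCM, 7.32 and 9.30 in LA, and 1.89 and 3.27 in TCM. No ranges of the 4 groups overlapped. The log2 fold change was -2.99 (SE 0.225, edgeR adjusted p = 1.89e-05) for TCM against CCM and -1.86 (SE 0.175, edgeR adjusted p = 0.000479) for LA against vehicle. The fall with TCM was the deeper, by -1.12 (edgeR adjusted p = 0.0373).

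Sort1 and Ackr3 belong to a list of 55 related genes that hold other vasoactive peptides, their receptors, and enzymes and signalling parts, none of them among the 10. The list was drawn up with earlier results of these data known. Of the 55, 30 passed the count minimum. In TCM against CCM 6 of the 30 rose, 5 fell and 19 were not called, against the 19.1% called over all tested genes. Their median log2 fold change was -0.05, beside 0.00032 over all genes. In LA against vehicle none rose, 2 fell (Ackr3 and Enpep) and 28 were not called, with a median of 0.02 beside -0.00035. Over all tested genes 2.55% were called in LA against vehicle and 1.24% were called lower. In the interaction 4 were called higher and 3 lower, against 10.4% of all tested genes called, 4.45% higher and 6.00% lower.

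Few other peptides of these families were measured. Of 12 genes 2 were tested, and Edn2, Edn3, Calca and Calcb had 0 counts in every library. Angiotensinogen, the product of Agt, is the source of angiotensin. Agt was at 1.90 and 2.68 CPM in vehicle, 3.96 and 4.20 in CCM, 1.65 and 4.79 in LA, and 0.842 and 0.436 in TCM, with 8 and 4 counts in the latter. In TCM against CCM Agt fell by 2.64 on the log2 scale (SE 0.541, edgeR adjusted p = 0.00566). Among 6 tested receptors Npr3, which clears natriuretic peptides, rose. It was at 436 and 480 CPM in vehicle, 349 and 361 in CCM, 601 and 569 in LA, and 1130 and 1311 in TCM. The groups did not overlap. Its log2 fold change was 1.78 for TCM against CCM (SE 0.111, edgeR adjusted p = 1.07e-05) and 0.35 for LA against vehicle (edgeR adjusted p = 0.135).

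Of 7 tested genes for peptide processing 3 rose with TCM against CCM and none fell, against 8.83% of all tested genes called higher and 10.2% called lower. Pcsk6, a convertase that cuts precursors, was at 28.0 and 41.3 CPM in vehicle, 24.0 and 21.2 in CCM, 24.2 and 32.8 in LA, and 63.5 and 76.2 in TCM. Its log2 fold change for TCM against CCM was 1.62 (SE 0.192, edgeR adjusted p = 0.000190). Pam, which adds the terminal amide that adrenomedullin needs, was at 193 and 243 CPM in vehicle, 212 and 205 in CCM, 224 and 277 in LA, and 344 and 362 in TCM. Its rise in TCM against CCM was 0.76 (SE 0.131, edgeR adjusted p = 0.00201). Of 6 tested peptide-degrading genes 1 rose and 1 fell, against the same shares. Enpep, an aminopeptidase that trims angiotensin, was at 22.6 and 19.7 CPM in vehicle, 18.8 and 18.2 in CCM, 13.8 and 11.7 in LA, and 8.63 and 7.96 in TCM. It fell by 1.16 with TCM against CCM (SE 0.154, edgeR adjusted p = 0.000378) and by 0.74 with LA against vehicle (SE 0.142, edgeR adjusted p = 0.0239), and these effects did not pass the test of their difference (-0.42, 95% interval -0.88 to 0.05, edgeR adjusted p = 0.257).

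Of 9 tested signalling genes 2 fell and none rose, beside the 19.1% of all tested genes called in either direction. One was Gucy1a1, a subunit of the soluble guanylate cyclase that responds to nitric oxide. Gucy1a1 was at 6.25 and 8.78 CPM in vehicle, 11.5 and 8.21 in CCM, 2.60 and 5.78 in LA, and 0.842 and 0.981 in TCM. In TCM against CCM Gucy1a1 fell by 3.43 on the log2 scale (SE 0.428, edgeR adjusted p = 0.000262). The remaining 3 genes called in TCM against CCM, named after their values were seen, were its partner subunit Gucy1b1 (-2.32, lower), the carboxypeptidase Cpe (0.51, higher) and the aminopeptidase Anpep (0.66, higher). Gucy1b1 was near the lower limit, at 15 and 16 counts in CCM and 1 and 4 in TCM (SE 0.553, edgeR adjusted p = 0.0123).

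**Figure D4:**
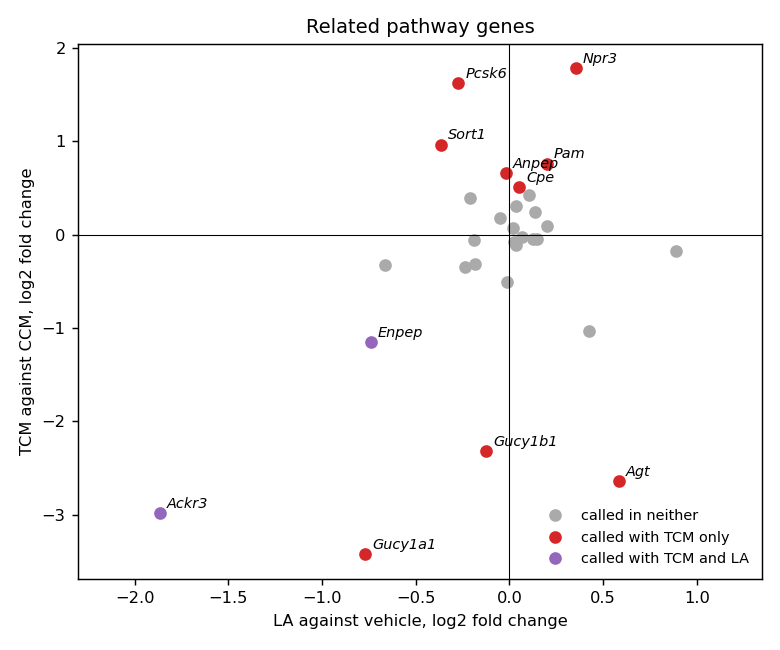
Log2 fold change of TCM against CCM (vertical axis) and of LA against vehicle (horizontal axis) for the 30 related genes that were tested; red points were called with TCM alone, purple points with TCM and LA, and grey points with neither. The 11 called genes are named, and Ackr3 and Enpep are the purple points, low on both axes.

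The genes closest in profile to each peptide gene were those with the smallest root-mean-square distance between log2 CPM profiles over the 8 libraries, each centred on its own mean. All profiles share the same libraries, so Pearson's r is a description. For Edn1 the closest was Lmcd1, a LIM domain cofactor, at a distance of 0.107 (r = 0.998, 8 libraries), followed by Tgm2 at 0.297 and Dhrs3 at 0.334. Lmcd1 was at 25.2 and 14.1 CPM in vehicle, 14.7 and 12.4 in CCM, 35.7 and 19.7 in LA, and 99.9 and 105 in TCM. The gaps between the vehicle libraries and between the LA libraries were part of the match to Edn1, since distances were taken over single libraries.

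For Adm the closest was Kcnab1, a potassium channel subunit, at 0.373 (r = 0.970), followed by Lcn2 at 0.380 and Gm21680 at 0.388. Kcnab1 had 7 to 14 counts outside TCM and 99 and 104 in TCM. For Nts the closest was Cacna1g, a calcium channel subunit, at 0.232 (r = 0.987), followed by Nefl at 0.393 and Stard8 at 0.401. Cacna1g was at 23.5 and 30.8 CPM in vehicle, 41.4 and 34.5 in CCM, 43.7 and 65.9 in LA, and 8.21 and 10.03 in TCM. Nefl and Stard8 had at most 32 and 25 counts in any library.

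**Figure D5:**
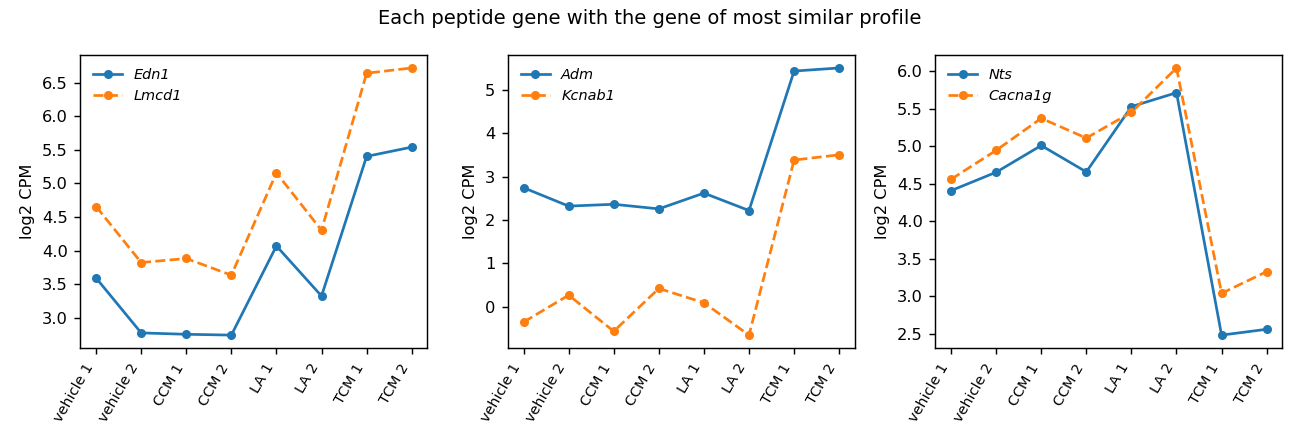
Level as log2 CPM of each peptide gene (solid) and of the gene of closest profile (dashed) in the 8 libraries, each panel with its own range; lines only join the libraries for reading. Edn1 and Lmcd1 run in parallel, Kcnab1 rises with Adm in TCM alone, and Cacna1g is low in TCM as Nts is.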

How the data were processed

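Poly(A) RNA of 8 mouse FRC libraries was sequenced from a directional kit. Per the methods and labels, the authors aligned reads to GRCm38 (Ensembl) with STAR 2.7.0a and counted them per gene with featureCounts (Subread 2.0.1), and the deposited table holds these raw counts. The strand setting is not given in the sources used here. A second deposited table held the same counts for 12137 genes and was not used. A gene entered the fit when 3 or more libraries held 10 or more of its counts. The fit used edgeR 4.0.16 (R 4.3.3), robust quasi-likelihood, TMM scaling, 4 group means over all 8 libraries, and Benjamini-Hochberg adjustment over 12137 genes. Calls needed an adjusted p under 0.05 and a log2 fold change beyond 0.39. CPM used total counts times TMM factors. Depth was 8232889 to 14107964 counts per library. Permuting 2 against 2 libraries cannot give a p below 0.333, so no such test was run. The code was tested on simulated counts. Positions and exon lengths were from GENCODE M21 and promoters from RefSeq, which held 9 of the 10 genes.

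The members and lists were chosen with earlier results of these data known. Named were all 10 members, up to 8 related genes per comparison by adjusted p, Ntsr1, Ntsr2, Sort1 and Ackr3 in any case, and the 3 closest profiles. Alternatives were DESeq2 1.42.0 and its size factors, no TMM factors, other count minimums and fold thresholds, the replicate number as a block, the compared libraries alone, and each library left out.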

Additional observations from a re-analysis of the deposited data

Results flagged for a closer look

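For 3 partner genes the effect of TCM over CCM differed from the effect of LA over vehicle by the interaction term of the edgeR fit. The differences on the log2 scale were -2.72 for Ednra (adjusted p = 0.0386), -1.75 for Calcrl (adjusted p = 0.000514) and -2.16 for Ramp2 (adjusted p = 0.000176). Ednra had 8 and 4 counts in the TCM libraries, and its call depended on single libraries. Its difference ranged from -3.70 to -1.95 when 1 library was left out. The TCM libraries were below both CCM libraries in all 3 genes, and the LA libraries were above both vehicle libraries for Ramp2. Nts showed opposite movement, with both LA libraries above both vehicle libraries and both TCM libraries below both CCM libraries, a difference of -3.41. That difference was not tested, because Nts was picked for its changes. Groups of 2 libraries are too small for a search for libraries that stand apart.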

How the results depend on the processing

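Without TMM factors the median gene moved by -0.14 on the log2 scale in TCM against CCM, and Edn1 and Adm stood at 2.59 and 3.02 there. No member changed direction under another scaling, tool or count minimum in the 4 comparisons recomputed gene by gene; TCM against LA was recomputed as counts, with 2 or 3 partner genes called. At a log2 fold change beyond 1 the related genes called in TCM against CCM were 7 rather than 11, and in LA against vehicle 1 rather than 2, while no partner gene was called in LA or in CCM against vehicle. With no filter on low counts 4 related genes were called in LA against vehicle. With 10 counts required in every library Ednra was not tested, leaving 2 partner genes called in TCM against CCM and 2 in the interaction.

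Leaving out each library in turn gave 2 to 4 partner genes called in TCM against CCM, 0 to 1 in LA against vehicle, 0 to 1 in CCM against vehicle and 2 to 3 in the interaction, and related genes called numbered 8 to 12 with TCM and 1 to 2 with LA. Omitting 1 library turned the sign of some differences near 0. In LA against vehicle the log2 fold changes then ranged from -0.34 to 0.086 for Adm, -0.033 to 0.27 for Ece1, -0.39 to 1.36 for Ednra and -0.31 to 0.079 for Calcrl. The sign turned without the first vehicle library (Adm, Ece1, Ednra), the second vehicle library (Calcrl), the first LA library (Calcrl) or the second LA library (Adm, Ednra). In CCM against vehicle Calcrl ranged from -0.023, without the first vehicle library, to 0.27. The cause was not tested. In these fits a group of 1 library is assumed to vary like the others. Over all tested genes, leaving out each library gave 1195 to 2864 calls rather than 2314 in TCM against CCM, 57 to 617 rather than 310 in LA against vehicle, 629 to 2540 rather than 1268 in the interaction, 1014 to 2896 rather than 1955 in TCM against LA, and 0 to 497 rather than 158 in CCM against vehicle. The 0 came from edgeR without the first vehicle or the first CCM library, where 1140 and 901 genes had an unadjusted p under 0.05. Beyond a log2 fold change of 0.68 and of 1 the calls were 1331 and 760 in TCM against CCM, 176 and 86 in LA against vehicle, 1126 and 623 in TCM against LA and 84 and 19 in CCM against vehicle, and beyond 1 they were 634 in the interaction. With no filter on low counts they were 656 in LA against vehicle and 584 in CCM against vehicle, where the compared libraries alone gave 679.

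The replicate numbers were not taken to pair the samples, since not every pair of groups correlated above 0.1; the 3 pairs without CCM did. The deviations of same-numbered libraries correlated at 0.353 for vehicle and LA, 0.112 for vehicle and TCM, 0.106 for LA and TCM, -0.0406 for vehicle and CCM, -0.0813 for CCM and LA and -0.242 for CCM and TCM, across genes. With the replicate number as a block the genes called were 356 rather than 310 in LA against vehicle, and 3 partner genes were called in TCM against CCM as without the block. The crossed CCM numbers, a choice made after seeing the data, gave 596 genes and 4 related genes in LA against vehicle, 457 genes in CCM against vehicle and 1938 in the interaction. Depth limits Ednra, Ramp1, Ramp3 and Ednrb, whose highest counts were 42, 2, 3 and 0.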
